A study of Mus musculus with 3 samples.

Results

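Amacrine and horizontal cells are the inhibitory interneurons of the retina, and a small set of transmitter and calcium-binding genes is used to tell their types apart. The genes described here were fixed by name, as Gad1, Gad2, Slc6a9, Calb1, Calb2, Chat and Th, and every probe set whose annotation gave exactly 1 of these symbols was taken. Of the 7 genes, 6 had a probe set, 1 each, among 8251 genes measured. Chat, the enzyme that makes acetylcholine in starburst amacrine cells, had no such probe set and was not measured here.

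The signals come from 3 arrays of neural retina of Rp1-/- mice at postnatal day 21, on a background that mixed 129/SvEv with C57BL/6. Each array held RNA pooled from 3 to 4 mice, whose retinas were collected between 1 and 2 pm, and no treatment is named. The 3 pools form 1 group and no wild-type samples were analysed here. Nothing could therefore be tested between conditions, and the values below describe levels in Rp1-/- retina and their spread between pools. No probe set carried the symbol Rp1 or its older form Rp1h, so the knockout was not checked on these arrays.

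In the inner retina, most amacrine cells release GABA or glycine, and smaller types add acetylcholine or dopamine. GABA is made from glutamate by the glutamate decarboxylases of Gad1 and Gad2, glycine is taken up by the transporter of Slc6a9, and tyrosine hydroxylase, from Th, carries out the rate-limiting step of dopamine synthesis. Calbindin, from Calb1, marks horizontal cells and some amacrine cells in mouse, and calretinin, from Calb2, marks amacrine cells including the starburst type, and ganglion cells. In whole retina, fewer cells of a type and less RNA per cell cannot be told apart.

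Background was judged from 19 control probe sets that target bacterial or yeast RNA: a gene counted as above it where its signal passed the 95th percentile of these controls. That limit was 160.3, 80.7 and 107.1 in replicates 1, 2 and 3. By this rule 5 of the 6 measured genes were above background on all 3 arrays, and Gad2 was not. The same held for 60.7% of all genes, or 54.4% of all probe sets. With so few genes the count is not read against that share. The arrays were alike in trimmed mean, but the median signals of replicates 1, 2 and 3 were 296, 216 and 249.8, and weak signals sat higher in replicate 1. Scaling the arrays to a common median moved all log2 signals by -0.22, 0.23 and 0.02 in replicates 1, 2 and 3, and the direction of differences between pools is given for the 6 genes under that scaling and under quantile normalization. Genes named from the pathway lists are given at the trimmed-mean scaling. Of 20 such genes above background on all arrays, 13 had the same highest replicate and 17 the same lowest replicate under all 3 scalings. Precision is limited by having 3 arrays. Probe sets differ in response, so no level is set against that of another gene. Nothing in the labels beyond separate samples says how the pools relate, and replicate numbers are only names.

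**Figure D1:**
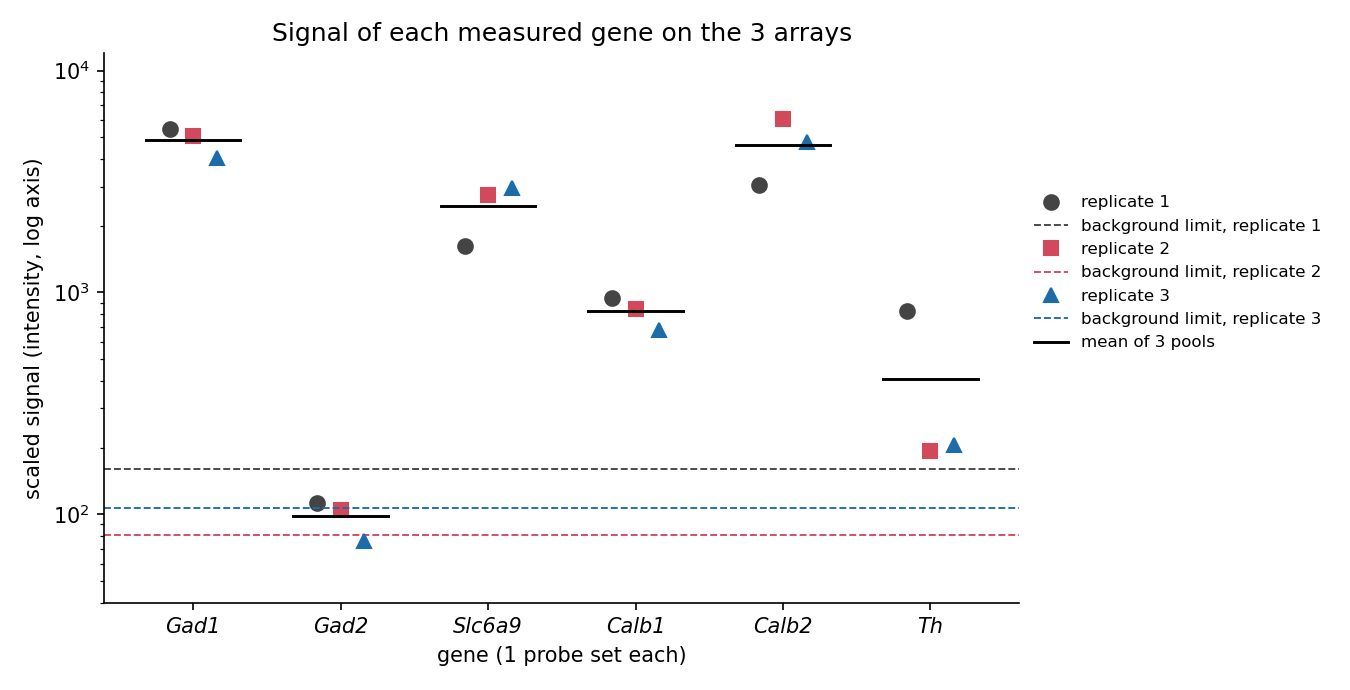
Scaled signal (intensity, log axis) of the 6 measured genes, with 1 marker per array, a black bar at the mean of the 3 pools and dashed lines at the background limit of each array. Gad2 lies near the limits on every array, while Th is at 825 in replicate 1 and at 193 and 205 in the other pools.

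Gad1, which encodes the decarboxylase that supplies most of the GABA of the cell, gave signals of 5445, 5053 and 4039 in replicates 1, 2 and 3 (probe set 103061_at). Its mean was 4846 ± 726 (SD, n = 3), and it lay 34.0, 62.6 and 37.7 times above the background limits. The highest pool exceeded the lowest by 1.35-fold, or 0.43 on the log2 scale. Replicate 3 was lowest under all 3 scalings, while the highest was replicate 1, or replicate 2 with arrays at a common median. The SD of Gad1 on the log2 scale was 0.22, against a median of 0.33 for the 1001 genes in the same quintile of mean signal, and 73.5% of those genes varied at least as much. After quantile normalization the range was 0.76 and the SD 0.41, against a quintile median of 0.27, and 24.9% of those genes varied at least as much. At a common median the SD of Gad1 was 0.27, against a quintile median of 0.49, and 83.0% of those genes varied at least as much. Gad1 was thus far above background. It varied less than most genes of like signal at the trimmed-mean and common-median scalings, and more than most after quantile normalization.

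Gad2, the decarboxylase that is enriched at nerve terminals, was close to background throughout. It gave 113 in replicate 1, 105 in replicate 2 and 75.5 in replicate 3 (97.8 ± 19.7, SD, n = 3; probe set 92899_at). These values were 0.703, 1.30 and 0.705 times the limits, so that replicate 2 alone was above background. Values near background carry little information on differences between pools, and with a floor at the highest limit the range of Gad2 was 0, so its order over the pools is not read. Gad2 is well known from GABAergic amacrine cells, and its low signal rests on a single probe set.

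Slc6a9, the glycine transporter that marks glycinergic amacrine cells, gave 1613, 2757 and 2965 in replicates 1, 2 and 3 (2445 ± 728, SD, n = 3; probe set 96160_at). Replicate 1 was the low pool under all 3 scalings, and replicates 2 and 3 differed by 0.11 on the log2 scale, with replicate 2 the higher at a common median. At the trimmed-mean scaling, replicate 1 minus the mean of the other pools was -0.83 on the log2 scale. The median of its quintile was -0.31, in the same direction. The range over pools was 1.84-fold. The log2 SD of 0.48 was reached or exceeded by 21.2% of the genes in the same quintile of signal. That share was 18.8% at a common median and 32.1% after quantile normalization.

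Th gave 825 in replicate 1, 193 in replicate 2 and 205 in replicate 3 (407 ± 361, SD, n = 3; probe set 100690_at). Replicate 1 stood apart, while replicates 2 and 3 differed by 1.06-fold. All 3 pools were above background, by 5.14, 2.39 and 1.92 times. The highest pool was 4.28-fold above the lowest, a log2 range of 2.10, which became 1.76 at a common median and 1.92 after quantile normalization, with replicate 1 highest in each. Th was the single member with a log2 range of 1 or more among the 5 above background, against 28.3% of all 5006 genes above background on all arrays. Without replicate 1 its range was 0.09 on the log2 scale. At the trimmed-mean scaling, a signal in replicate 1 at least 2-fold above both other pools was found for 361 genes (7.21%). An excess over both of at least that of Th, 4.02-fold, was found for 29 genes (0.58%), Th included. At a common median Th was 708, 226 and 209, and after quantile normalization 791, 231 and 209. In its own quintile of signal the median log2 SD was 0.42, and 2.70% of 1001 genes had an SD of at least the 1.19 of Th. That share was 5.19% at a common median and 3.70% after quantile normalization. With 1 pool of 3 apart and no second probe set, the difference has no further check.

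**Figure D2:**
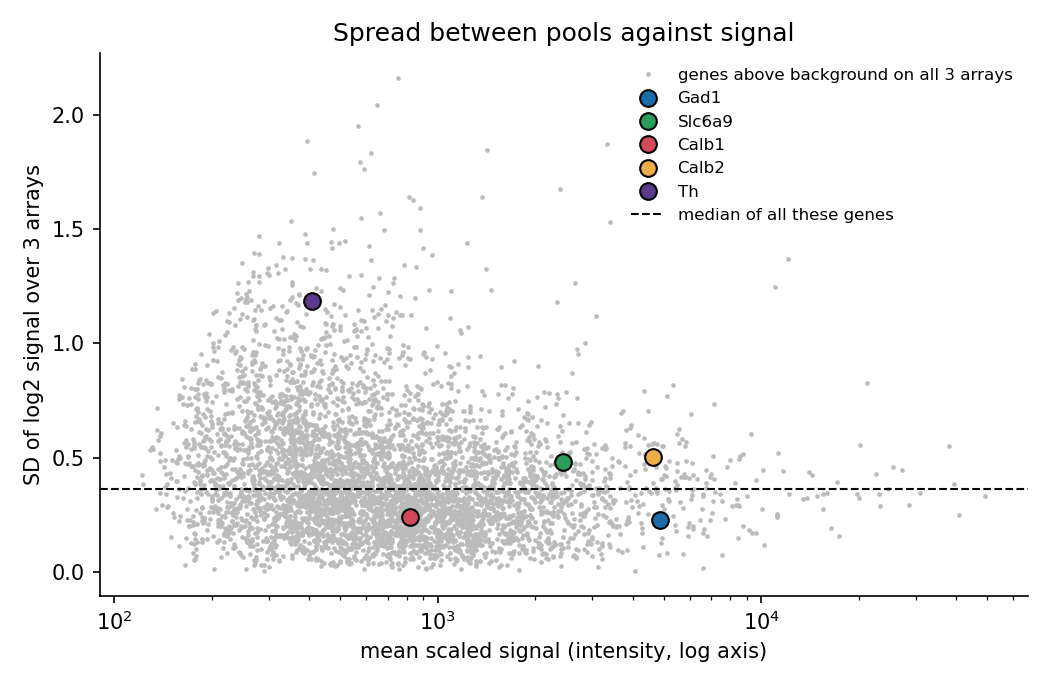
SD of the log2 signal over the 3 arrays (vertical axis) against the mean scaled signal (intensity, log axis) for the 5006 genes that passed the background limit on every array (grey), with the 5 genes described in colour and the median of all genes as a dashed line at 0.36. Th lies high in the cloud at 1.19, Slc6a9 and Calb2 above the median at 0.48 and 0.50, and Gad1 and Calb1 below it at 0.22 and 0.24.

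The sequence before the Th start is shown because Th had the widest spread, and those of Gad1 and Gad2 because these genes encode the 2 enzymes of GABA synthesis, the first far above background and the second near it. The RefSeq promoter table for GRCm38.p6 held an entry for 5 of the 7 genes, namely Gad1, Gad2, Slc6a9, Chat and Th. The 250 bases before the start lie at chr7:142899996-142900245 on the minus strand for Th, at chr2:70561879-70562128 on the plus strand for Gad1 and at chr2:22622077-22622326 on the plus strand for Gad2. Capitals mark matches on either strand to 6 motifs, the cAMP response element (TGACGTCA), its half-site (TGACG), the GC box (GGGCGG), the TATA box (TATAAA), an E-box (CAGCTG) and the CCAAT box (CCAAT).
Th: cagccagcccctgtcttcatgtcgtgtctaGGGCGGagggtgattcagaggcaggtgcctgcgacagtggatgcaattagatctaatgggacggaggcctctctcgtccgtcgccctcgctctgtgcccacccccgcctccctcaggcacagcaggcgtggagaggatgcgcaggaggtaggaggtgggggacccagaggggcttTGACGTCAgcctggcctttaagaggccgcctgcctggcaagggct
Gad1: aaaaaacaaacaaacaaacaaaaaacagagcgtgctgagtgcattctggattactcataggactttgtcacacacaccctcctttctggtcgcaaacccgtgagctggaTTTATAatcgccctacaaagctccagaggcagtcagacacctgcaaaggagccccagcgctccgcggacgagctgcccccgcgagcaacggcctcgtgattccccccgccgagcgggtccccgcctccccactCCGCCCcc
Gad2: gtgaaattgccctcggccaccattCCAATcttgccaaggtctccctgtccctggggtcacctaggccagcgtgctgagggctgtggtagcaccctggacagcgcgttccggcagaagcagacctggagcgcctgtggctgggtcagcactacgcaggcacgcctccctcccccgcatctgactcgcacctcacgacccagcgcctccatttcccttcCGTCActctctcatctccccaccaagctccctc

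Th carried the whole cAMP response element from base -45 to base -38, counted from the start, and the same letters occurred in 508 of 32851 promoters of this length (1.55%). The element was searched because the Th promoter is known for it, so this share does not measure how unexpected the match is. This element contains the half-site on both strands, which 17.8% of promoters held. Th also had a GC box from -220 to -215, a motif found in 32.7% of promoters. Gad1 had a GC box on the opposite strand from -8 to -3 and the TATA letters on the opposite strand from -141 to -136, the latter found in 12.4% of promoters. Gad2 held the half-site on the opposite strand from -33 to -29 and the CCAAT letters from -226 to -222, which 33.8% of promoters held. The E-box letters, in 13% of promoters, were in none of the 3 windows. The 3 sequences had a GC content of 64.4% for Th, 58.0% for Gad1 and 64.0% for Gad2, against a median of 52.4% over all promoters. These matches describe the reference sequence, and no binding was measured here.

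Calb1 gave 940, 844 and 679 in replicates 1, 2 and 3 (821 ± 132, SD, n = 3; probe set 98133_at). The pools spanned 1.38-fold, with replicate 3 lowest under all 3 scalings and replicate 1 highest, except at a common median, where replicate 2 was. The log2 SD was 0.24, against a median of 0.31 for genes of the same quintile. Of those genes, 65.6% varied at least as much as Calb1.

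Calb2 gave 3047 in replicate 1, 6033 in replicate 2 and 4768 in replicate 3 (4616 ± 1499, SD, n = 3; probe set 95036_at). Replicate 1 was lowest and replicate 2 highest under all 3 scalings. Genes of the same quintile leaned the same way at the trimmed-mean scaling. Replicate 1 minus the mean of the other pools was -0.82 on the log2 scale for Calb2, beside a quintile median of -0.31. For replicate 2 these values were 0.66 and 0.32. The range of 1.98-fold, or 0.99 on the log2 scale, lay just under the threshold of 1, was 1.44 at a common median and was 0.49 after quantile normalization. At a common median Slc6a9 passed the threshold as well, at 1.22. Of the genes in the quintile of Calb2, 18.5% had a log2 SD of at least its 0.50, and after quantile normalization 53.9% reached its SD of 0.25.

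The 5 genes above background had a median log2 SD of 0.48, beside 0.36 over all genes above background, and a median range of 0.88, beside 0.69. At a common median the SDs were 0.68 and 0.42, and after quantile normalization 0.36 and 0.35, so the gap between them depended on the scaling. Without replicate 1 their median SD was 0.22, beside 0.24 for all genes then above background. Replicate 1 was the highest pool for Gad1, Calb1 and Th, replicate 2 for Calb2 and replicate 3 for Slc6a9. Over all genes above background, replicate 1 was highest in 42.6%, replicate 2 in 33.0% and replicate 3 in 24.4%. These shares do not hold at every signal level. The median log2 difference of replicate 1 from the mean of the other pools was 0.25 in the quintile of Th. It was -0.10 in that of Calb1 and -0.31 in that of Gad1, Slc6a9 and Calb2. Beside these medians, Th was at 2.05, Calb1 at 0.31, Gad1 at 0.27, Slc6a9 at -0.83 and Calb2 at -0.82.

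**Figure D3:**
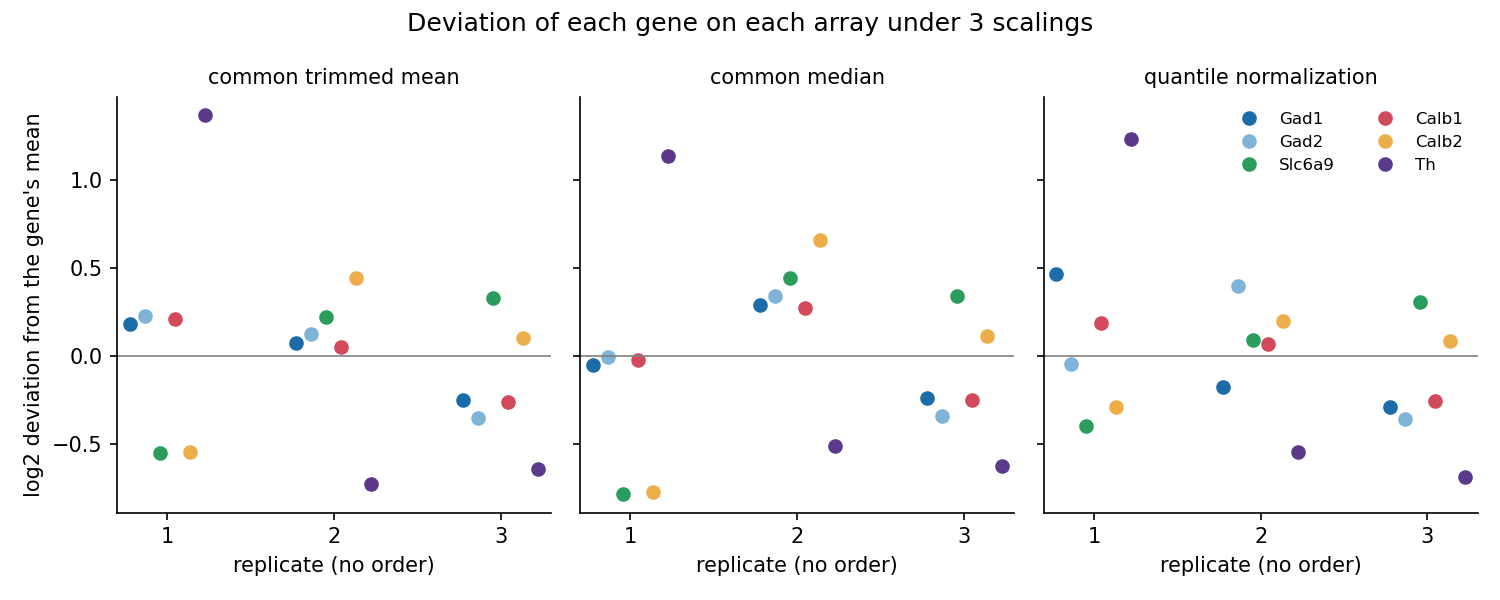
Log2 deviation of each measured gene from its own mean on each array, with arrays scaled to a common trimmed mean (left), a common median (centre) or by quantile normalization (right), 1 point per gene and array. Th is highest in replicate 1, and Slc6a9 and Calb2 lowest there, in all 3 panels, while the order of replicates 1 and 2 for Gad1 and Calb1 depends on the scaling. Gad2 is near background.

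A ratio of 2 genes on the same array is free of any factor that scales a whole array, and the 10 pairs of the 5 genes above background were compared. The ratio of Gad1 to Calb1 had the narrowest range, 0.05 on the log2 scale, or 1.03-fold, over the 3 pools. Quantile normalization, which bends the scale of each array, widened it to 0.53. Of 5005 other genes above background, 314 lay within 0.1 of Gad1, by the root mean square difference of log2 deviations over the 3 arrays. Calb1 lay closer than that window, at 0.02. No further from Gad1 than Calb1 lay 14 of the 5005 genes, Calb1 included. The order of pools that Gad1 and Calb1 shared, with replicate 1 highest and replicate 3 lowest, occurred in 20.4% of genes, and at a common median both were highest in replicate 2.

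The ratio of Slc6a9 to Calb2 had a range of 0.44 on the log2 scale, and of 0.33 after quantile normalization, which was then the narrowest. Each departed from Gad1, mainly in replicate 1: the range of the ratio of Gad1 to Calb2 was 1.09 and that of Gad1 to Slc6a9 1.31. After quantile normalization these were 1.13 and 1.46. The widest ratio was that of Calb2 to Th, with a range of 3.08, or 8.47-fold, and 2.30 after quantile normalization. Relative to the GABA, glycine and calretinin genes of the same RNA, Th was thus high in replicate 1 at every scaling used.

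**Figure D4:**
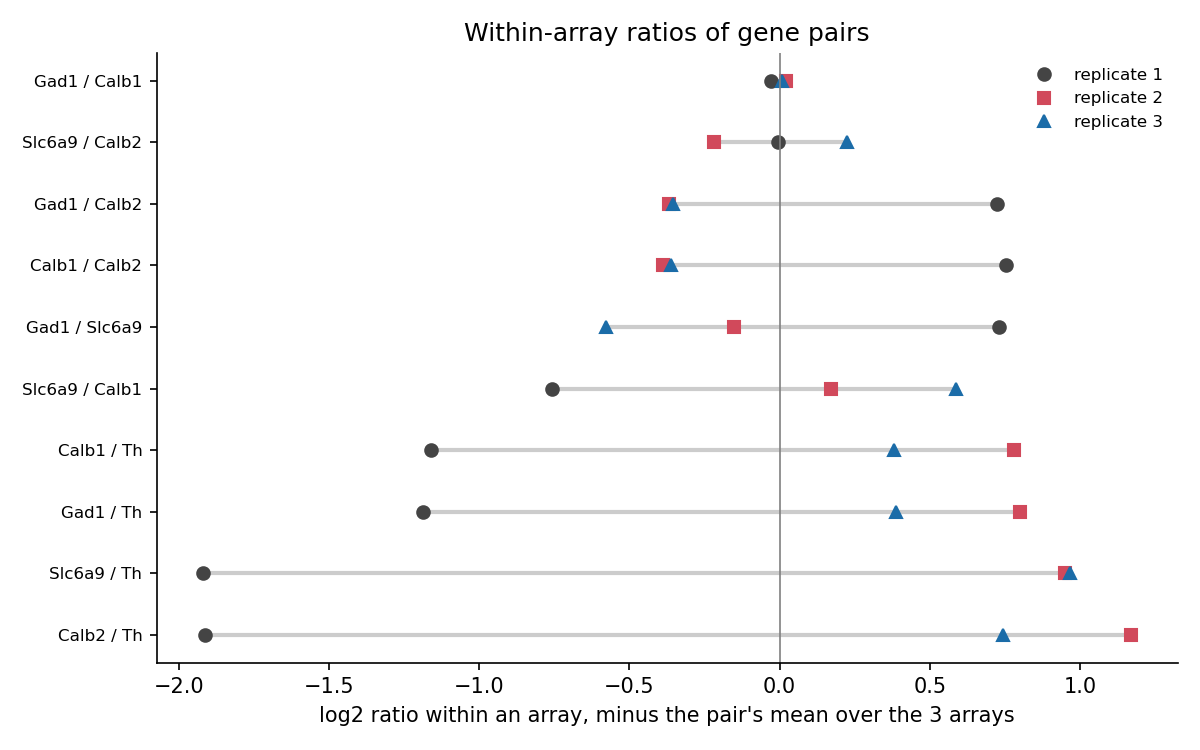
Log2 ratio of each of the 10 pairs of genes above background, within an array, minus the mean of that pair over the arrays, with 1 marker per replicate and a grey bar over the range. The pair of Gad1 and Calb1 spans 0.05, and all 4 pairs with Th have replicate 1 at the left end, the widest spanning 3.08.

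Genes whose values over the pools were most like those of Th were named by the same distance. The nearest 3 were Col26a1, a collagen, with 620, 148 and 158 in replicates 1, 2 and 3, then Pygb, the brain glycogen phosphorylase, with 1129, 279 and 293, and Tax1bp1, an autophagy receptor, with 1940, 421 and 463. Of further probe sets of Tax1bp1, 1 gave 5215, 7953 and 6308, lowest in replicate 1, and another 514, 162 and 189, highest there. Within 0.1 of Th lay 18 of 5005 genes, and none of the other genes described here was among the nearest 3.

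The other genes of each transmitter pathway were taken from lists written down by function. Of the dopamine list, 9 of 13 genes had a probe set and 5 were above background on all arrays, or 7 without replicate 1. The shares of all genes above background were 60.7% and 69.6%. With so few genes, the counts of this and the other lists are not read against those shares. Drd2, the dopamine receptor that serves as autoreceptor on dopamine cells, was the widest of these, with 923, 409 and 449 in replicates 1, 2 and 3, highest in the same pool as Th. Ddc, the decarboxylase that acts after tyrosine hydroxylase, gave 53.4, 99.0 and 174. It was below background in replicate 1, so its order over the pools is not read. The dopamine transporter Slc6a3 (81.7, 57.6 and 97.3) and Gch1, which makes the cofactor of tyrosine hydroxylase (29.3, 49.7 and 58.3), were below background on all arrays. The median difference of replicate 1 from the mean of the other pools was -0.02 on the log2 scale over the 5 genes above background and -0.15 over all 9 measured, beside 2.05 for Th. The 9 include Ddc, Spr, Slc6a3 and Gch1, which were not above background on all arrays, so their median carries little information.

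Of the GABA list, 8 of 15 genes were measured and 7 were above background on all arrays, beside 60.7% of all genes. Slc32a1, the vesicular transporter that loads GABA and glycine, gave 2772, 2952 and 2184, lowest in replicate 3 like Gad1. Slc6a13, a plasma membrane GABA transporter, gave 811, 1073 and 1302, the widest range of the list at 0.68. The receptor subunit Gabra2 gave 261, 268 and 279. No gene of the list above background had a range of 1 or more, beside 28.3% of all genes above background. The median SD of the list was 0.23, close to that of Gad1, beside 0.36 over all genes above background.

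Of the glycine list, all 7 of the 7 measured genes were above background, beside 60.7% of all genes. Their median SD was 0.49, beside 0.36 over all genes above background. The glycine receptor subunit Glra1 was high in replicate 1, with 984 against 339 and 467. Glrb, the beta subunit, gave 1661, 2672 and 2428, and Gphn, the source of the receptor scaffold gephyrin, gave 622, 970 and 712, both lowest in replicate 1 like Slc6a9. Shmt1, a serine hydroxymethyltransferase that forms glycine, had the widest range, 1.81, with 321, 91.2 and 168, although a further probe set was below background on all arrays. The value in replicate 2 lay close to that array's limit of 80.7, so the range rests on a signal near background. Genes of glycine transmission did not share 1 direction.

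In place of Chat, the acetylcholine list gives a partial view. Of its 14 genes, 7 were measured and 3 were above background on all arrays, beside 60.7% of all genes. Slc18a3, the vesicular acetylcholine transporter, was below background on every array, at 46.2, 47.3 and 55.7. Ache, the esterase that breaks acetylcholine down, gave 883, 1044 and 1115, and the nicotinic receptor subunit Chrna6 gave 1233, 876 and 671, the widest range of the list at 0.88.

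Of the other calcium-binding proteins, 10 of 15 were measured and 8 were above background, beside 60.7% of all genes. Parvalbumin, Pvalb, gave 1254, 1521 and 2340, lowest in replicate 1 like Calb2, but highest in replicate 3. A further probe set of Pvalb gave 25.0, 91.0 and 168, below background in replicate 1. Calm2 of calmodulin gave 432, 248 and 394, and hippocalcin, Hpca, gave 1529, 1017 and 690. The widest range was that of Vsnl1, a neuronal calcium sensor, with 1172, 2861 and 2234, in the same order of pools as Calb2. Of the 8 genes above background, 4 had a range of 1 or more, beside 28.3% of all genes above background. Their median SD was 0.50, beside 0.36 over all those genes.

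Among transcription factors of amacrine and horizontal cells, 8 of 12 measured genes of 17 were above background, or 10 without replicate 1. The shares of all genes were 60.7% and 69.6%. Pax6, which is active in all amacrine cells, gave 2978, 2474 and 3060. Tfap2a gave 854, 459 and 465, with 173, 309 and 364 at another probe set that ran the opposite way, and Tfap2b gave 933, 873 and 649. Prox1, a horizontal cell and AII amacrine cell factor, was the widest, with 215, 379 and 554. Of a last list of amacrine and horizontal cell genes, 3 of 8 measured were above background, beside the same 60.7% of all genes. Stx1a, the syntaxin of conventional synapses, gave 346, 283 and 186, and Elavl3, a neuronal RNA-binding protein, gave 651, 257 and 375. Dab1 (9.39, 1.80 and 5.80) and Nos1 (32.6, 42.3 and 85.3) were below background on all arrays at these probe sets, but another of Dab1 gave 59.8, 198 and 390.

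**Figure D5:**
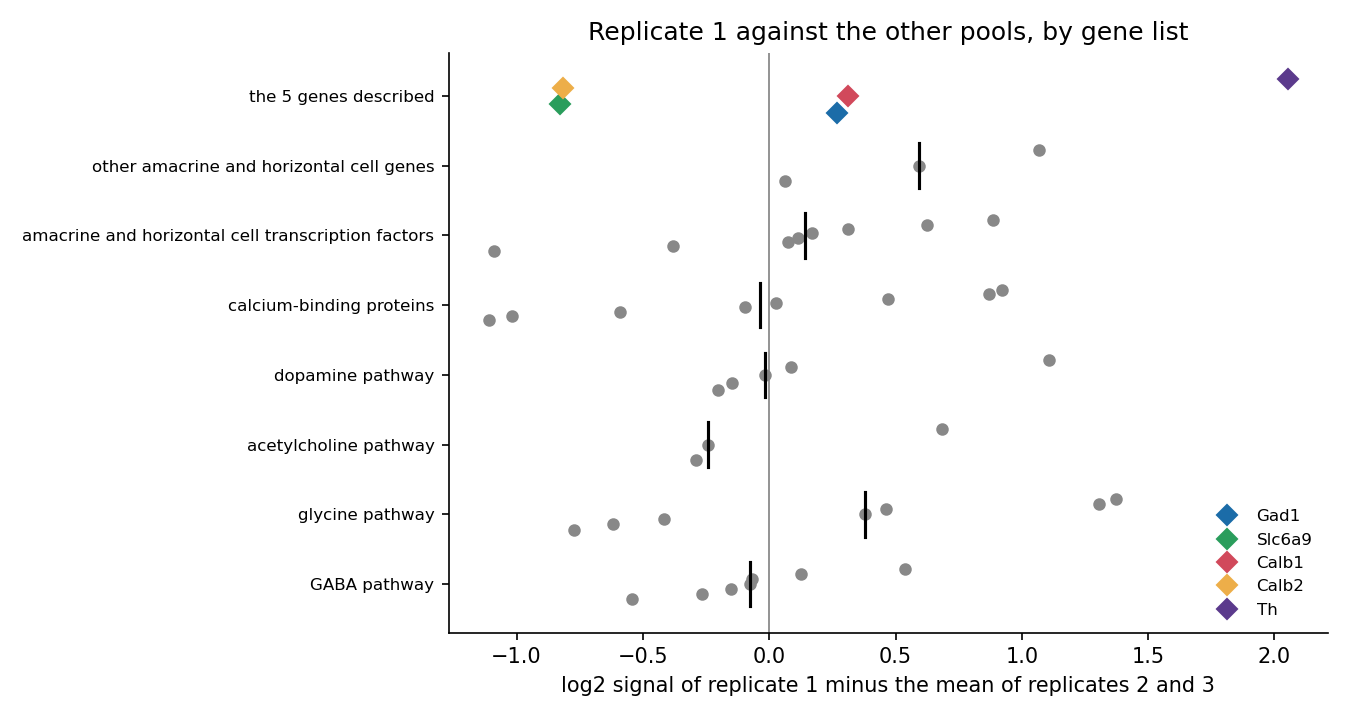
Log2 signal of replicate 1 minus the mean of replicates 2 and 3 for genes past the background limit on every array, by list (grey points, black bar at the list median), with the 5 genes described as coloured diamonds. Th lies at 2.05, to the right of all other points, Slc6a9 and Calb2 at -0.83 and -0.82, and the list medians lie between -0.24 and 0.59.

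Markers of other cell types differed between the pools too, and their part in the values above was not tested. Summed signals depend on the strongest genes, so the number of markers above background that were highest in each pool is given with them, at the trimmed-mean scaling. Over all genes, 60.7% were above background on all arrays. Of those, 42.6%, 33.0% and 24.4% were highest in replicates 1, 2 and 3. Ganglion cells, some of which contain calretinin, had all 8 measured markers above background, 6 of them highest in replicate 1, and sums of 9534, 7951 and 6681 in replicates 1, 2 and 3. At a common median those sums were 8190, 9331 and 6795, highest in replicate 2.

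Summed Müller glia markers, all 6 above background, were 12448, 19732 and 17126. They were lowest in replicate 1 under all 3 scalings, like Slc6a9 and Calb2. Of the 6, however, 2 were highest in replicate 1 (Glul and Vim), 3 in replicate 2 and 1 in replicate 3. A further probe set of Glul gave 1828, 457 and 1873, highest in replicate 3. Bipolar cell markers, 3 of 4 above background on all arrays, summed to 1402, 2784 and 2853, also lowest in replicate 1 under all 3 scalings. Of the 3, 1 was highest in replicate 2 and 2 in replicate 3. A further probe set of Pcp2, not in the sum, gave 2067, 2692 and 1958, lowest in replicate 3. Of 6 pigmented cell markers 2 were above background on all arrays, both highest in replicate 2, and the 6 summed to 1552, 12153 and 8064. Of 8 markers of connective tissue and smooth muscle 5 were above background on all arrays, 1 highest in replicate 1, 1 in replicate 2 and 3 in replicate 3. The 8 summed to 2664, 15898 and 10968, and without Ptgds the sums were 1775, 3449 and 4232, highest in replicate 3. A further probe set of Col1a1, not in the sums, gave 37.9, 150 and 158, below background in replicate 1. The probe set used gave 556, 409 and 769.

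Red blood cell markers (2 of 4 above background, both highest in replicate 2) summed to 5490, 31716 and 8254, highest in replicate 2 under all 3 scalings. Rod markers (7 of 7) summed to 100056, 146672 and 100965 and lens markers (7 of 7) to 128467, 189739 and 133972. Of the rod markers, 1 was highest in replicate 1, 5 in replicate 2 and 1 in replicate 3. Of the lens markers, 2 were highest in replicate 1 and 5 in replicate 2. Further probe sets of the rod marker Pde6b (1778, 1776 and 1602) and the lens marker Crygb (2146, 1686 and 925) were highest in replicate 1. The probe sets used for these genes were highest in replicate 2. After quantile normalization the rod sum was highest in replicate 1 and the lens sum in replicate 3. No marker was at 0.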

How the data were processed

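The value table as deposited by the authors holds 1 linear intensity for each of 12488 probe sets and each of 3 arrays, and the sample titles name the U74Av2 array. The software and scaling behind these intensities are not given in the sources used here. Each array was multiplied by 1 factor (0.998, 1.00 and 1.00) that set the mean of its 12422 probe sets other than controls, after trimming 2% at each end, to a common value. Before taking log2, a floor was set at each array's 5th percentile. Platform annotation gave 10833 probe sets 1 symbol, 396 several and 1193 none, and only the first kind named genes. For a gene with several probe sets, a plain suffix and then the highest mean decided.

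Named genes were all members, the first 3 measured genes of each list, the gene above background with the widest range in each list, and the 3 nearest neighbours of a member with a range of 1 or more. Members and lists were chosen with earlier results of these data known. The 6 motifs were chosen after the signals were known, the cAMP response element because the Th promoter is known for it. The computations were tested on simulated data. Python 3.11.15, numpy 2.4.6, pandas 2.3.3 and matplotlib 3.10.9 were used.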

Additional observations from a re-analysis of the deposited data

How the results depend on the processing

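The count of genes above background on all arrays was 5 with each array's highest control (55.5% of all genes) or 40th percentile (55.0%) as limit. It was also 5 without any 1 replicate, where only the remaining arrays had to be passed. The share of all genes was then 69.6%, 62.4% and 63.3% without replicates 1, 2 and 3. With the median of the controls the count was 6, where Gad2 passed, as did 85.8% of all genes. The count of genes with a log2 range of 1 or more was 3 rather than 1 at a common median (Th, Calb2 and Slc6a9; 34.2% of all genes), 3 with a threshold of 0.5 (69.6% of all genes), and 0 to 1 when each replicate was left out, 0 being without replicate 1, where the share of all genes was 5.73%, beside 17.8% without replicate 2 and 22% without replicate 3. Leaving out each replicate gave a median SD of 0.22 to 0.55, the lowest without replicate 1. At a common median the log2 difference of replicate 2 minus replicate 1 changed sign for Gad1 (0.34), Gad2 (0.35) and Calb1 (0.29), and that of replicate 3 minus replicate 2 for Slc6a9 (-0.10) and Th (-0.12). After quantile normalization it changed sign for Gad2 (0.44) and Th (-0.14) respectively. Removing the floor or adding a pseudocount reversed none of these differences, while a floor at the highest background limit set all those of Gad2 to 0. Each gene has 1 probe set, so the choice of probe set could change no value of these genes. Marker sums, list genes under other scalings and the sum without Ptgds were added after seeing the data, and pair ratios were then limited to genes above background. With 3 pools, no group contrast and 1 probe set a gene, signal near background limits Gad2 most. No paired analysis was possible because the samples form 1 group.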
